A study of Mus musculus with 15 samples.

Results

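The 37 genes described here encode enzymes of glycolysis and parts of the cell's response to low oxygen. They were chosen by symbol, and each was found among the 22526 gene symbols of the expression table. By role they comprised 3 genes of the hexokinase and isomerase steps, 5 phosphofructokinase subunits and regulators, 9 genes from aldolase to pyruvate kinase, 3 genes of pyruvate fate, 3 subunits of the hypoxia-inducible factors (HIFs), 4 oxygen sensors and HIF inhibitors, and 10 other hypoxia response genes. Of the 37, 36 averaged at least 1 FPKM (fragments per kilobase of transcript, scaled to library depth) over all libraries and were tested. The remaining gene, Stc2, a secreted stanniocalcin, lay between 0.187 and 0.589 FPKM in every library and was not tested.

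Glycolysis splits glucose into pyruvate in the cytosol, and lactate dehydrogenase turns pyruvate into lactate when it is not passed to the mitochondria. When oxygen is sufficient, prolyl hydroxylases mark the HIF alpha subunits for destruction through the von Hippel-Lindau protein. When oxygen is low, the alpha subunits persist, pair with Arnt and bind short DNA motifs near target genes, among them most glycolytic enzymes. Brain endothelium takes up glucose for the brain through the transporter encoded by Slc2a1, and expresses Epas1 (HIF-2 alpha) beside Hif1a (HIF-1 alpha).

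RNA was sequenced from cerebral vessels of wild-type C57BL/6 mice aged 8 months, in 15 libraries that formed 3 groups of 5. GFP-Veh mice carried AAV-GFP, an adeno-associated virus encoding green fluorescent protein, placed in the brain by stereotactic injection, and received saline. GFP-AL mice carried the same virus and received angiotensin II (AngII) with L-NAME, which blocks nitric oxide synthesis. LH3-AL mice carried AAV-LH3, which encodes the lysyl hydroxylase LH3, and received AngII with L-NAME as well. Injection of a virus was common to the 3 groups, no group combined AAV-LH3 with saline, and the sources used here do not give the promoter that drives the transgenes. Vessels were separated from homogenised brain after the pia mater and choroid plexus had been taken off. Since these are bulk libraries, fewer cells of a type and less RNA per cell cannot be told apart. The labels do not say whether a library stands for 1 mouse, so p-values measure only the spread between these samples, which may be technical.

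The sequencing depth of the libraries, estimated from how finely low values are spaced, was 13.54 to 16.0 M (mega) fragments in GFP-Veh replicates 1 to 4 and 29.8 in replicate 5, but 21.16 to 27.82 in GFP-AL and 18.08 to 31.58 in LH3-AL. Where the best-fitting depth divided by 2 fitted not much worse, that lower depth was taken, and no other division was tried. Whether this set the values of GFP-Veh replicates 1 to 4 was not recorded, and the fits with depth as a covariate rest on these estimates. On the first principal component, which held 43.6% of the variance, GFP-AL libraries scored 19.8 to 58.0 and all libraries of the other groups lay below 0. GFP-AL replicates 2 and 3 (49.4 and 58.0) and GFP-Veh replicate 2 stood apart, and counts without these 3 libraries are given beside the main ones. Plod3, which encodes LH3, had group means of 16.8 ± 0.621 FPKM (GFP-Veh), 13.9 ± 1.09 (GFP-AL) and 21.6 ± 1.46 (LH3-AL; SD, n = 5), with no overlap between LH3-AL and GFP-AL. Summed levels of 10 endothelial markers were 2047.7 to 3779.6 FPKM over the 15 libraries, and those of 10 neuronal markers 104.1 to 241.2. Markers of the choroid plexus were present (8 genes, 1966.7 to 9204.2 FPKM).

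The core of the DNA motif bound by HIF is ACGTG or GCGTG, and the sequence upstream of the genes was searched for it on both strands. The ACGTG core is also part of the E-box CACGTG, which other factors bind. Shown are the 4 members with the smallest p among those that rose in GFP-AL against GFP-Veh and have a match. Each sequence is from RefSeq on GRCm38.p6, reads 5′ to 3′ on the gene's own strand and ends at the base before the RefSeq start of the gene, except that of Ddit4. Capitals mark the motif, which reads CACGT or CACGC where it lies on the opposite strand.
Adm (chr7:110627407-110627656, plus strand): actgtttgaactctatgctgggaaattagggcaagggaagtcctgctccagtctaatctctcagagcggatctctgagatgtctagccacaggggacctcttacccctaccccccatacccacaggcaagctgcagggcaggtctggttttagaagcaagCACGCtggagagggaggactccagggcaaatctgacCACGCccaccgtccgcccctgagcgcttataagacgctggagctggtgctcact
Hif1a (chr12:73907617-73907866, plus strand): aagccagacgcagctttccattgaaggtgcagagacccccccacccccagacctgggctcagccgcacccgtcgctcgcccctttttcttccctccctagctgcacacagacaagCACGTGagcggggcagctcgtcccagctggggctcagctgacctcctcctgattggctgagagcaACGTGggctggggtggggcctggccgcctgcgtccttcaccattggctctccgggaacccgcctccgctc
Gapdh (chr6:125165774-125166023, minus strand): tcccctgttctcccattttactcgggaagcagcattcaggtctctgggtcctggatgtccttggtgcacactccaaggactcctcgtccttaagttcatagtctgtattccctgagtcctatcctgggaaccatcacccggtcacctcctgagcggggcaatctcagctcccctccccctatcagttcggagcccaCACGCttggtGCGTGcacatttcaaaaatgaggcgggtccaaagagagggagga
Ddit4 (chr10:59951835-59952020, minus strand): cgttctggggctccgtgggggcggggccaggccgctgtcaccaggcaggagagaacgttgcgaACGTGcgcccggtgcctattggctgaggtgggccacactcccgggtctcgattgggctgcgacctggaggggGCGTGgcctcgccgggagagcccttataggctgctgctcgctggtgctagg

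Adm, which encodes the vasodilator peptide adrenomedullin, holds 2 GCGTG matches on the opposite strand. In Hif1a 2 of the 3 ACGTG matches form a palindromic E-box. Gapdh, the glyceraldehyde-3-phosphate dehydrogenase, has GCGTG once on each strand, 54 and 44 bases before its start. Ddit4, a stress-induced inhibitor of mTORC1, has ACGTG and GCGTG once each on its own strand, and its sequence stops where GENCODE M21 places the first exon, 64 bases short of the RefSeq start. The Gapdh stretch is intronic to longer Gapdh transcripts in that annotation. The Hif1a stretch lies in introns of a longer Hif1a transcript and of the antisense gene Gm15283, and the Adm stretch in an intron of the antisense gene Gm28863.

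Of the 34 members with a RefSeq window, 29 held either motif in at least 1 of their windows of 250 bases (85.3%), against 60.8% of the 9628 tested genes with a window and 41.5% of all 27025 genes. ACGTG alone was held by 44.1% of these members and 24.7% of tested genes. Several windows were listed for 32.4% of members and 20.4% of tested genes. In the first listed window alone the shares with either motif were 73.5% and 56.3%. Either motif was held by 7 of 7 members that rose in GFP-AL, 21 of 26 members that were tested and not called (80.8%), and 56.8% of all genes that rose in GFP-AL. The other 3 members, Epas1, Bnip3l and Ndrg1, had no window. A match is a description of the sequence and not evidence of binding.

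In GFP-AL against GFP-Veh, which asks what the drugs did in mice with the control virus, 7 of the 36 tested members rose and 0 fell. They were Hk2, Gapdh, Pgk1 and Pkm of glycolysis, the transcription factor Hif1a, and the hypoxia- or stress-induced genes Ddit4 and Adm. Adm changed most on the log2 scale, from 5.72 ± 0.801 to 54 ± 29.3 FPKM (mean ± SD, n = 5), while Gapdh went from 5.14 ± 0.398 to 7.71 ± 1.17. The 7 were 19.4% of the tested members, against 10.8% of the 13082 genes tested that rose and 17.7% that fell (limma, adjusted p below 0.05). The median difference over the 36 members was 0.117 on the log2(FPKM + 1) scale, against -0.092 over all genes. Differences on this scale understate the change of low genes.

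At an unadjusted p below 0.05, limma put 13 members higher (36.1%) and 0 lower, where it put 14.8% of all tested genes higher and 25.8% lower. In 4 members (Gapdh, Hif1a, Ddit4 and Adm) every GFP-AL library lay above every GFP-Veh library, where 6.59% of all tested genes did so and 10.1% lay wholly below. With median-of-ratios scaling 10 members rose, and the calls over all genes went from 1416 higher and 2321 lower to 1843 and 1712. The count of members was 8 without the 3 libraries that stood apart, 11 without GFP-AL replicate 5 and 4 with depth as a covariate. Over all genes, those called higher numbered 1512, 1357 and 1010 in the same fits.

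In LH3-AL against GFP-AL, which asks what the LH3 virus did in mice given the drugs, 7 of 36 members were lower and 0 higher. The lower genes were Hk2, Pfkfb3, Gapdh, Pgk1, Pkm, Ddit4 and Adm. Ddit4 went from 173 ± 101 to 51.2 ± 17.7 FPKM and Pkm from 306 ± 59.2 to 203 ± 42.8. These 7 were 19.4% of the members, against 11.4% of all tested genes that were lower and 17% that were higher. The median over members was -0.069 on the log2(FPKM + 1) scale, against 0.079 over all genes. At an unadjusted p below 0.05 limma put 9 members lower (25.0%) and 1, Pdk1, higher, where it put 16.1% of all tested genes lower and 25.6% higher.

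For 2 members, Hk2 and Ddit4, every LH3-AL library lay below every GFP-AL library, where 8.45% of all tested genes did so. Without the 3 libraries that stood apart 6 members were lower. Median-of-ratios scaling gave 8 members lower and changed the calls over all genes from 2227 higher and 1496 lower to 1784 and 1895. This comparison and the one above share the GFP-AL libraries, so a high value there enters both.

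In LH3-AL against GFP-Veh, 0 of 36 members were called in either direction by limma, where 0.145% of all tested genes were higher and 0.375% lower. At an unadjusted p below 0.05, 5 members were higher (Hif1a, Pdk1, Ankrd37, Bnip3l and Adm; 13.9%) and 0 lower, where 3.73% of all tested genes were higher and 5.29% lower. For Hif1a and Pdk1 every LH3-AL library lay above every GFP-Veh library, where 2.06% of all tested genes did so, 2.61% lay wholly below and 4.67% did either. The median over members was 0.11, against -0.014 over all genes. No member was called without the 3 libraries that stood apart. Drugs and virus both differ between these groups.

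**Figure D1:**
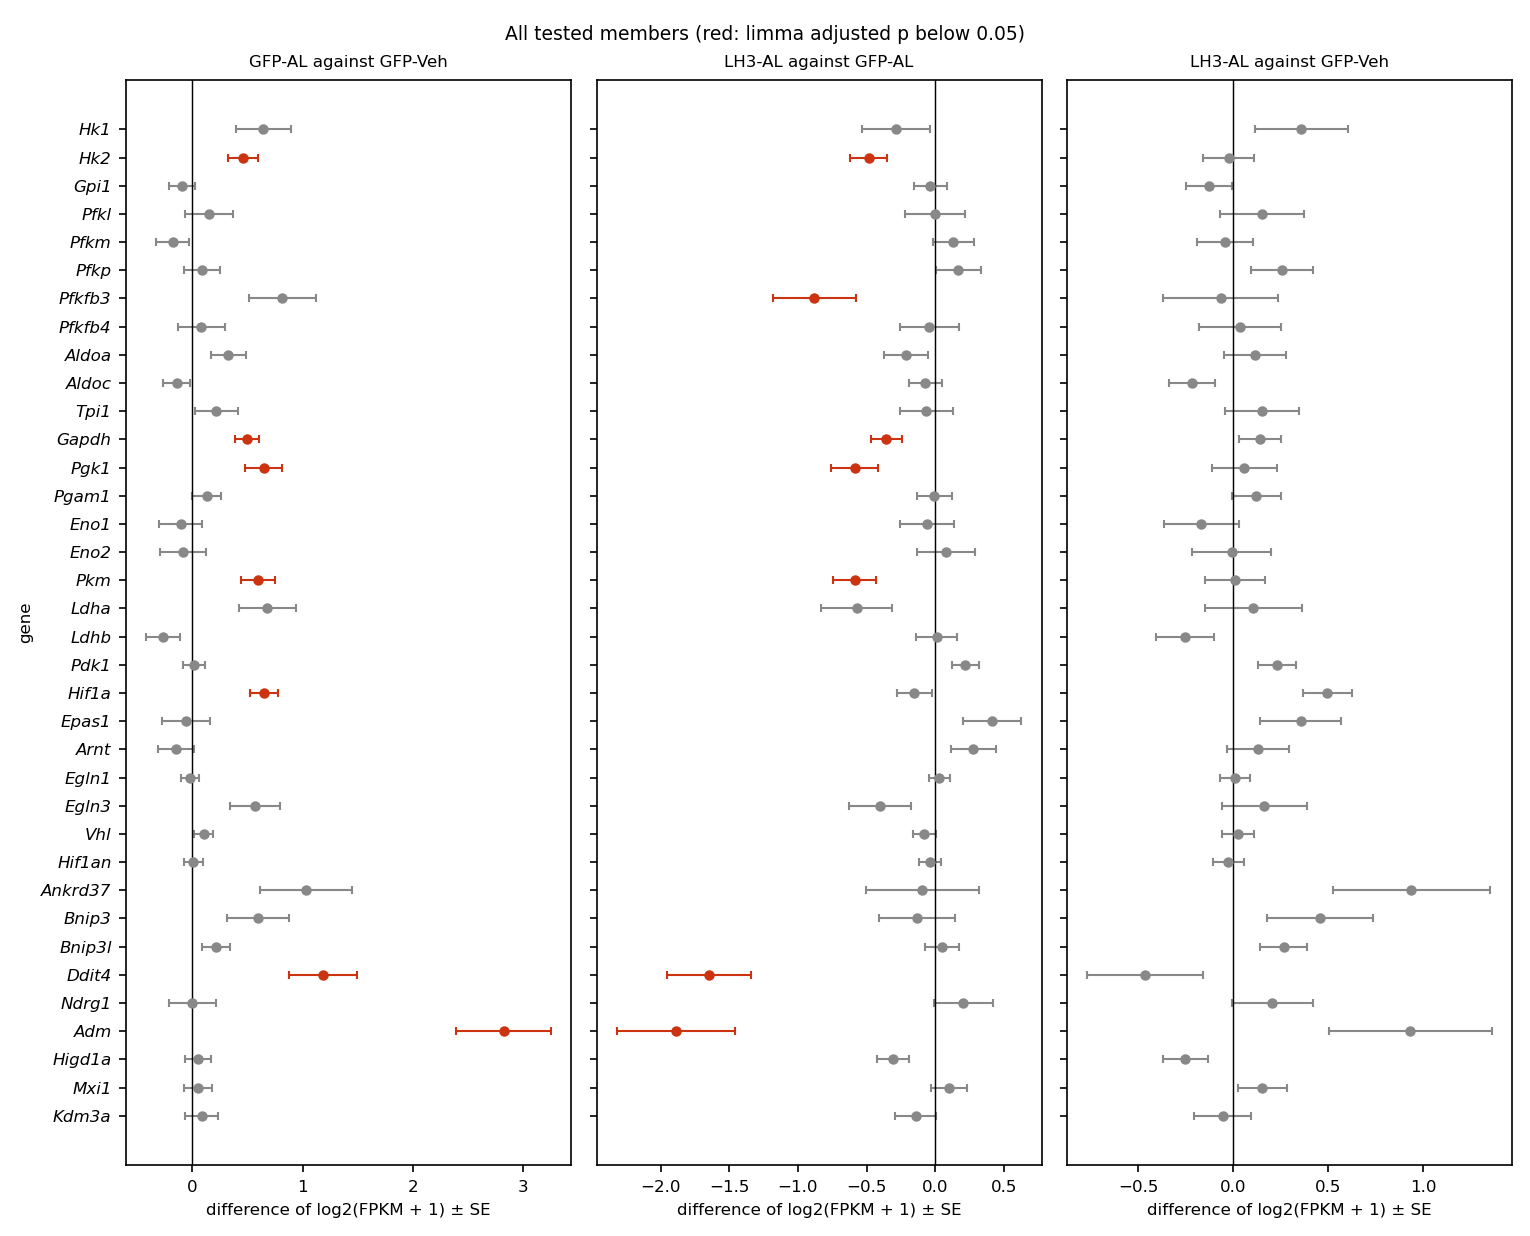
Difference of log2(FPKM + 1) for each of the 36 tested members in the 3 comparisons (point, with bars of ± 1 SE from limma; 5 libraries a group), in red where the adjusted p is below 0.05. The 7 red points in GFP-AL against GFP-Veh are all above 0, the 7 in LH3-AL against GFP-AL are all below 0, and LH3-AL against GFP-Veh has none.

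The first steps of glycolysis were represented by Hk1 and Hk2, the hexokinases that trap glucose in the cell, and Gpi1, the isomerase that follows. Hk2 (ENSMUSG00000000628, chromosome 6, 82725025 to 82774454, minus strand; positions here and below are those of GENCODE M21 on GRCm38) was a low gene, at 1.12, 0.954, 0.791, 0.811 and 1.24 FPKM for GFP-Veh replicates 1 to 5, 1.61, 2.92, 1.17, 1.53 and 1.66 for GFP-AL and 1.03, 0.959, 1.09, 0.913 and 0.735 for LH3-AL. GFP-AL replicate 2 stood highest, GFP-AL replicate 3 fell inside the GFP-Veh range, and LH3-AL lay below all of GFP-AL. Hk2 was 0.46 ± 0.13 (SE; adjusted p = 0.0189) in GFP-AL against GFP-Veh and -0.49 ± 0.13 (SE; adjusted p = 0.0158) in LH3-AL against GFP-AL. Its first call was not reached with depth as a covariate (0.38, adjusted p = 0.142) or in a fit of the 2 groups alone (0.46, adjusted p = 0.0548). Hk1 averaged 9.51, 15.7 and 13 FPKM in the 3 groups and its 0.64 ± 0.25 (SE; adjusted p = 0.0627) in GFP-AL missed the threshold, though it passed without GFP-Veh replicate 3 (0.77, adjusted p = 0.0401) or GFP-AL replicate 1 (0.76, adjusted p = 0.0359). Gpi1 averaged 36.3, 34.0 and 33.3 FPKM in the 3 groups, with -0.09 in GFP-AL against GFP-Veh and -0.04 in LH3-AL against GFP-AL.

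Phosphofructokinase is the main control point of glycolysis, and its subunits are encoded by Pfkl, Pfkm and Pfkp. None of the 3 subunits was called in any comparison, and their differences ran from -0.18 (Pfkm) to 0.15 (Pfkl) in GFP-AL against GFP-Veh. Pfkfb3 (ENSMUSG00000026773, chromosome 2, 11471433 to 11554077, minus strand) makes fructose-2,6-bisphosphate, the activator of phosphofructokinase, and in endothelium is known for its role in vessel sprouting. It measured 1.34, 0.307, 1.67, 1.02 and 1.35 FPKM (GFP-Veh), 1.03, 2.38, 6.55, 4.15 and 1.45 (GFP-AL) and 1.14, 0.538, 0.742, 1.55 and 1.10 (LH3-AL). GFP-AL replicates 3, 4 and 2 were high, whereas replicates 1 and 5 lay within the GFP-Veh range. Its difference was 0.81 ± 0.30 (SE; adjusted p = 0.0556) in GFP-AL against GFP-Veh and -0.88 ± 0.30 (SE; adjusted p = 0.0406) in LH3-AL against GFP-AL.

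The call of Pfkfb3 in LH3-AL against GFP-AL was lost without GFP-AL replicate 2 (-0.91, adjusted p = 0.0587), 3 (-0.62, adjusted p = 0.101) or 4 (-0.76, adjusted p = 0.0867), and without LH3-AL replicate 1 (-0.91, adjusted p = 0.0654), 2 (-0.79, adjusted p = 0.093), 3 (-0.83, adjusted p = 0.0779) or 5 (-0.90, adjusted p = 0.0586). Without the 3 libraries that stood apart it was -0.57 (adjusted p = 0.137). The call was also lost with a pseudocount of 0.1 (-1.31, adjusted p = 0.0545) and with no filter on low values (-0.88, adjusted p = 0.0605). The same held with depth as a covariate (-0.88, adjusted p = 0.0526) and in a fit of the 2 groups alone (-0.88, adjusted p = 0.0656). In GFP-AL against GFP-Veh Pfkfb3 passed without GFP-AL replicate 1 (1.03, adjusted p = 0.0162) or 5 (0.96, adjusted p = 0.0331). Pfkfb4, which encodes a related regulator, averaged 1.27, 1.37 and 1.37 FPKM, with differences of 0.08, -0.04 and 0.04.

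From aldolase to pyruvate kinase, 3 of 9 members (Gapdh, Pgk1 and Pkm; 33.3%) rose in GFP-AL, where 10.8% of all tested genes rose. The same 3 of 9 were lower in LH3-AL than in GFP-AL, where 11.4% of all tested genes were lower. Pgk1 (ENSMUSG00000062070, chromosome X, 106187100 to 106203699, plus strand) encodes the phosphoglycerate kinase that makes the first ATP of the pathway. It measured 25.9, 35.4, 27.7, 26.8 and 26 FPKM (GFP-Veh), 50.5, 68.5, 33.8, 42.8 and 35.1 (GFP-AL) and 26.7, 30.5, 26.9, 26.2 and 37.9 (LH3-AL). GFP-AL replicates 2 and 1 were highest, and the lowest GFP-AL library fell below GFP-Veh replicate 2 and LH3-AL replicate 5, each the highest of its group. Pgk1 was 0.65 ± 0.17 (SE; adjusted p = 0.011) in GFP-AL against GFP-Veh and -0.59 ± 0.17 (SE; adjusted p = 0.0197) in LH3-AL against GFP-AL, and with depth as a covariate the first was 0.64 ± 0.23 (SE; adjusted p = 0.0625).

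Pkm (ENSMUSG00000032294, chromosome 9, 59656368 to 59679375, plus strand), the pyruvate kinase of most tissues, was the second most abundant member after Epas1, with a mean of 236 FPKM over all libraries. It measured 176, 246, 202, 199 and 179 FPKM (GFP-Veh), 339, 388, 279, 288 and 234 (GFP-AL) and 175, 215, 175, 178 and 273 (LH3-AL). The GFP-AL values overlapped the highest library of each other group. Pkm was 0.60 ± 0.16 (SE; adjusted p = 0.0107) in GFP-AL against GFP-Veh and -0.59 ± 0.16 (SE; adjusted p = 0.0129) in LH3-AL against GFP-AL. With quantile normalization these became 0.34 (adjusted p = 0.0822) and -0.27 (adjusted p = 0.153), and with depth as a covariate the first was 0.62 ± 0.21 (SE; adjusted p = 0.0504).

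Gapdh (ENSMUSG00000057666, chromosome 6, 125161715 to 125166467, minus strand) measured 4.94, 4.88, 5.25, 5.79 and 4.83 FPKM (GFP-Veh), 7.64, 8.79, 6.80, 8.98 and 6.34 (GFP-AL) and 5.99, 6.89, 4.64, 5.11 and 6.42 (LH3-AL). All GFP-AL libraries were above all GFP-Veh libraries, and LH3-AL overlapped both groups. Gapdh was 0.50 ± 0.11 (SE; adjusted p = 0.00437) in GFP-AL against GFP-Veh and -0.36 ± 0.11 (SE; adjusted p = 0.0283) in LH3-AL against GFP-AL. The second call was lost without GFP-AL replicate 2 (-0.31, adjusted p = 0.0627) or 4 (-0.30, adjusted p = 0.0626), without LH3-AL replicate 3 (-0.29, adjusted p = 0.0727) or 4 (-0.32, adjusted p = 0.0723), and in the fit that left out all 3 outlying libraries named above (-0.35, adjusted p = 0.0684).

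The level of Gapdh, 6.22 FPKM over all libraries on a scale that is per length, was far below that of Pgk1 (34.7) and Pgam1 (81.8), which act after it in the pathway. In GENCODE M21 75 other genes carry a copy of its coding sequence (at least 95% identity over 200 bases or more), and 6 of them are in the table. The sources used here do not say how reads that match several places were counted, so the level of Gapdh is uncertain. Of the 37 members, 13 have such a copy, among them Pgk1 and Bnip3 (4 each), Eno1 and Ldha (3 each) and Pkm (1). The part of copies in any difference was not tested.

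The other 6 genes of this stretch, Aldoa, Aldoc, Tpi1, Pgam1, Eno1 and Eno2, were not called in any of the 3 comparisons. Aldoa, the aldolase of most tissues, came nearest at 0.33 ± 0.16 (SE; adjusted p = 0.14) in GFP-AL, and passed without GFP-AL replicate 5 (0.47, adjusted p = 0.0228). Pgam1, the phosphoglycerate mutase, differed by 0.13 and the enolases Eno1 and Eno2 by -0.11 and -0.08. Tpi1, the triosephosphate isomerase, differed by 0.22, and Aldoc, the brain-type aldolase, by -0.14.

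**Figure D2:**
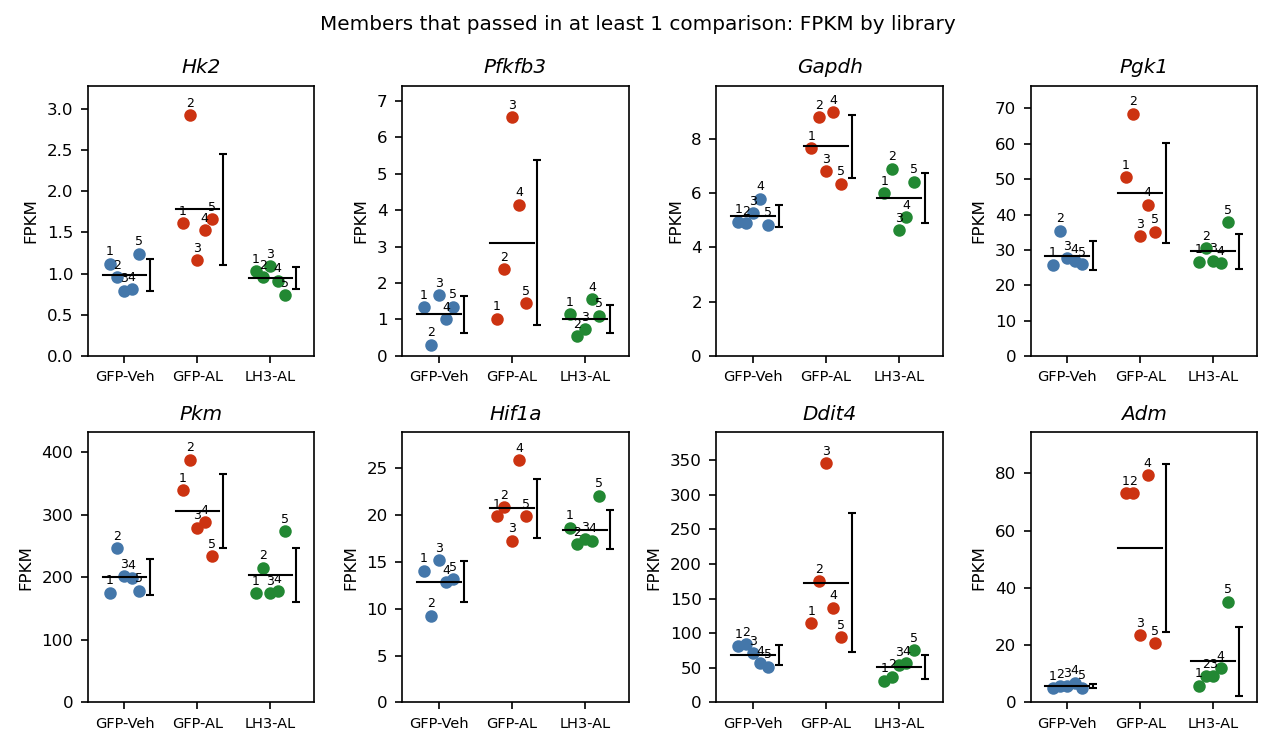
FPKM in each of the 15 libraries for the 8 members that passed in at least 1 comparison (points, numbered by replicate; line, group mean; bracket, ± 1 SD, n = 5). GFP-AL has the highest mean in every panel, and the 5 GFP-AL points clear all GFP-Veh points for Gapdh, Hif1a, Ddit4 and Adm.

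Pyruvate is turned to lactate by lactate dehydrogenase, whose subunits are encoded by Ldha and Ldhb, while the kinase Pdk1 holds back its conversion to acetyl-CoA. Ldha (ENSMUSG00000063229, chromosome 7, 46841475 to 46855627, plus strand) measured 53.2, 73.2, 65.5, 60.3 and 43.4 FPKM (GFP-Veh), 109, 149, 76.1, 97 and 60.1 (GFP-AL) and 54.3, 55.9, 54.5, 48.5 and 121 (LH3-AL). In LH3-AL, 4 libraries lay at or below 55.9 FPKM and replicate 5 stood above all GFP-AL libraries but replicate 2. Ldha was 0.68 ± 0.26 (SE; adjusted p = 0.0605) in GFP-AL against GFP-Veh and -0.57 ± 0.26 (SE; adjusted p = 0.107) in LH3-AL against GFP-AL, neither of which passed. Without LH3-AL replicate 5 the latter was -0.81 (adjusted p = 0.0148), and without GFP-AL replicate 5 it was -0.73 (adjusted p = 0.0452). The former passed without GFP-AL replicate 5 (0.84, adjusted p = 0.0241), without GFP-Veh replicate 2 (0.76, adjusted p = 0.0462) and with median-of-ratios scaling (0.77, adjusted p = 0.0388).

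Ldhb (ENSMUSG00000030246, chromosome 6, 142490249 to 142507957, minus strand) measured 58.7, 92.3, 48, 52.8 and 55 FPKM (GFP-Veh), 48.2, 57, 54.6, 44 and 45.2 (GFP-AL) and 51, 60.1, 45.8, 50.1 and 43.6 (LH3-AL). GFP-Veh replicate 2 was far above the rest and the groups otherwise overlapped. Ldhb was -0.26 ± 0.15 (SE; adjusted p = 0.205) in GFP-AL against GFP-Veh and 0.01 in LH3-AL against GFP-AL, and with quantile normalization the first passed (-0.36, adjusted p = 0.0416). Pdk1 ranged from 3.38 to 4.27 FPKM (GFP-Veh), 2.81 to 4.54 (GFP-AL) and 4.30 to 4.81 (LH3-AL). It was 0.23 ± 0.10 (SE; adjusted p = 0.5) in LH3-AL against GFP-Veh and 0.22 ± 0.10 (SE; adjusted p = 0.11) in LH3-AL against GFP-AL, the latter passing without GFP-AL replicate 1 (0.28, adjusted p = 0.0452).

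Among the HIF subunits, Hif1a rose in GFP-AL and the other 2 members were not called, where 10.8% of all tested genes rose. Hif1a (ENSMUSG00000021109, chromosome 12, 73901375 to 73947530, plus strand) measured 14, 9.27, 15.2, 12.8 and 13.1 FPKM (GFP-Veh), 19.8, 20.8, 17.2, 25.8 and 19.9 (GFP-AL) and 18.6, 16.9, 17.4, 17.2 and 22 (LH3-AL). Every library of both drug-treated groups lay above every GFP-Veh library, and the drug-treated groups overlapped each other. Hif1a was 0.65 ± 0.13 (SE; adjusted p = 0.00183) in GFP-AL against GFP-Veh, then -0.15 ± 0.13 (SE; adjusted p = 0.376) in LH3-AL against GFP-AL and 0.50 ± 0.13 (SE; adjusted p = 0.128) in LH3-AL against GFP-Veh. Exons of Hif1a overlap the antisense gene Gm15283 and, on the same strand, Gm49321. Of the 37 members 14 overlap another gene in this way, among them Gapdh (Iffo1, opposite strand), Pkm (Gm49759, same strand) and Ankrd37 (Lrp2bp and Ufsp2, opposite strand). The sources used here do not say whether reads were counted by strand.

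Epas1 (ENSMUSG00000024140, chromosome 17, 86753700 to 86833410, plus strand) was the most abundant member, with 507 FPKM over all libraries against 17.3 for Hif1a. It measured 515, 357, 586, 450.3 and 419 FPKM (GFP-Veh), 414, 257, 574, 554 and 491 (GFP-AL) and 561, 428, 741, 675 and 580.2 (LH3-AL), and all groups overlapped. Epas1 was -0.06 ± 0.21 (SE; adjusted p = 0.863) in GFP-AL against GFP-Veh and 0.41 ± 0.21 (SE; adjusted p = 0.155) in LH3-AL against GFP-AL. Arnt, the shared partner subunit, averaged 3.91, 3.40 and 4.25 FPKM, with -0.15 and 0.28 in the same comparisons. In GFP-Veh replicate 2 it was listed at 2.04 FPKM, where the other 4 libraries of the group had 4.09 to 4.55.

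The oxygen sensors and inhibitors of HIF had 0 of 4 members called in each comparison by limma. Over all tested genes 28.6% were called in either direction in GFP-AL against GFP-Veh and 28.5% in LH3-AL against GFP-AL. In LH3-AL against GFP-Veh it was 0.52%, and 4 genes are too few to set against such shares. Egln3 was below an unadjusted p of 0.05 in GFP-AL against GFP-Veh, where limma put 14.8% of all tested genes higher and 25.8% lower. Egln1, the main HIF prolyl hydroxylase, averaged 31.1 ± 0.94, 30.7 ± 1.69 and 31.4 ± 2.97 FPKM in the 3 groups. Vhl, the von Hippel-Lindau protein, differed by 0.10 ± 0.08 (SE; adjusted p = 0.376) and Hif1an, the asparaginyl hydroxylase that blocks HIF activity, by 0.01 ± 0.08 (SE; adjusted p = 0.935) in GFP-AL against GFP-Veh. Egln3, a prolyl hydroxylase that is itself known to be induced by HIF, ranged from 1.99 to 3.85 FPKM (GFP-Veh), 1.91 to 7.16 (GFP-AL) and 2.72 to 3.63 (LH3-AL). It was 0.57 ± 0.22 (SE; adjusted p = 0.0697) in GFP-AL against GFP-Veh and -0.40 ± 0.22 (SE; adjusted p = 0.185) in LH3-AL against GFP-AL. GFP-AL replicate 3 held its lowest value of all 15 libraries, and without it these were 0.80 (adjusted p = 0.00302) and -0.63 (adjusted p = 0.0134).

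Of the 10 other hypoxia response genes, 9 were tested and Ddit4 and Adm were called. They were 22.2% of the 9, where 10.8% of all tested genes rose in GFP-AL and 11.4% were lower in LH3-AL than in GFP-AL. Adm (ENSMUSG00000030790, chromosome 7, 110627661 to 110629820, plus strand) measured 4.87, 5.77, 5.88, 6.93 and 5.13 FPKM (GFP-Veh), 73.1, 73.2, 23.4, 79.5 and 20.7 (GFP-AL) and 5.83, 9.27, 9.15, 12 and 35.2 (LH3-AL). GFP-AL replicates 1, 2 and 4 lay at 73.1 FPKM or above and replicates 3 and 5 at 23.4 or below, still above all GFP-Veh libraries. LH3-AL replicate 5 exceeded those lower GFP-AL values while the other 4 LH3-AL libraries did not exceed 12. Adm was 2.82 ± 0.43 (SE; adjusted p = 2.74e-04) in GFP-AL against GFP-Veh, then -1.89 ± 0.43 (SE; adjusted p = 0.00539) in LH3-AL against GFP-AL and 0.93 ± 0.43 (SE; adjusted p = 0.549) in LH3-AL against GFP-Veh.

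Ddit4 (ENSMUSG00000020108, chromosome 10, 59949669 to 59951834, minus strand) measured 81.1, 84, 71, 56.3 and 51.8 FPKM (GFP-Veh), 114, 175, 345, 137 and 94.2 (GFP-AL) and 31.4, 37, 54.6, 57.1 and 75.8 (LH3-AL). Every GFP-AL library was above every library of the other groups, with replicate 3 highest. Ddit4 was 1.18 ± 0.31 (SE; adjusted p = 0.00966) in GFP-AL against GFP-Veh, then -1.65 ± 0.31 (SE; adjusted p = 0.0015) in LH3-AL against GFP-AL and -0.46 ± 0.31 (SE; adjusted p = 0.706) in LH3-AL against GFP-Veh.

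Ankrd37, a direct HIF target of little-known function, and the mitophagy receptor Bnip3 are given by library after their values were seen. Ankrd37 measured 3.95, 5.31, 4.39, 4.66 and 3.22 FPKM (GFP-Veh), 16.7, 17.9, 5.20, 16.3 and 2.96 (GFP-AL) and 5.04, 8.39, 6.83, 9.82 and 20.5 (LH3-AL). As with Adm, GFP-AL replicates 1, 2 and 4 were high and 3 and 5 low, and replicate 5 was the highest of LH3-AL. It was 1.03 ± 0.41 (SE; adjusted p = 0.0734) in GFP-AL against GFP-Veh, then -0.09 ± 0.41 (SE; adjusted p = 0.881) in LH3-AL against GFP-AL and 0.94 ± 0.41 (SE; adjusted p = 0.516) in LH3-AL against GFP-Veh. Without GFP-AL replicate 5 the first was 1.39 (adjusted p = 0.00986).

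Neither Bnip3 nor Bnip3l, a related mitophagy receptor, was called. Bnip3 measured 20.4, 12.7, 15.1, 13.6 and 11.5 FPKM (GFP-Veh), 30.4, 15.7, 31.6, 23.5 and 15.2 (GFP-AL) and 11.6, 14.5, 21.9, 23.7 and 37.4 (LH3-AL), and was 0.59 ± 0.28 (SE; adjusted p = 0.121) in GFP-AL against GFP-Veh. Bnip3l averaged 31.7, 37.4 and 38.6 FPKM, a difference of 0.27 ± 0.12 (SE; adjusted p = 0.551) between LH3-AL and GFP-Veh. Higd1a, a mitochondrial protein induced by low oxygen, was -0.31 ± 0.12 (SE; adjusted p = 0.0647) in LH3-AL against GFP-AL, and -0.38 (adjusted p = 0.0242) without GFP-AL replicate 4. Ndrg1, Mxi1 (a MYC antagonist) and Kdm3a (a histone demethylase) differed by 0.00, 0.05 and 0.09 in GFP-AL against GFP-Veh and by 0.20, 0.10 and -0.14 in LH3-AL against GFP-AL.

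**Figure D3:**
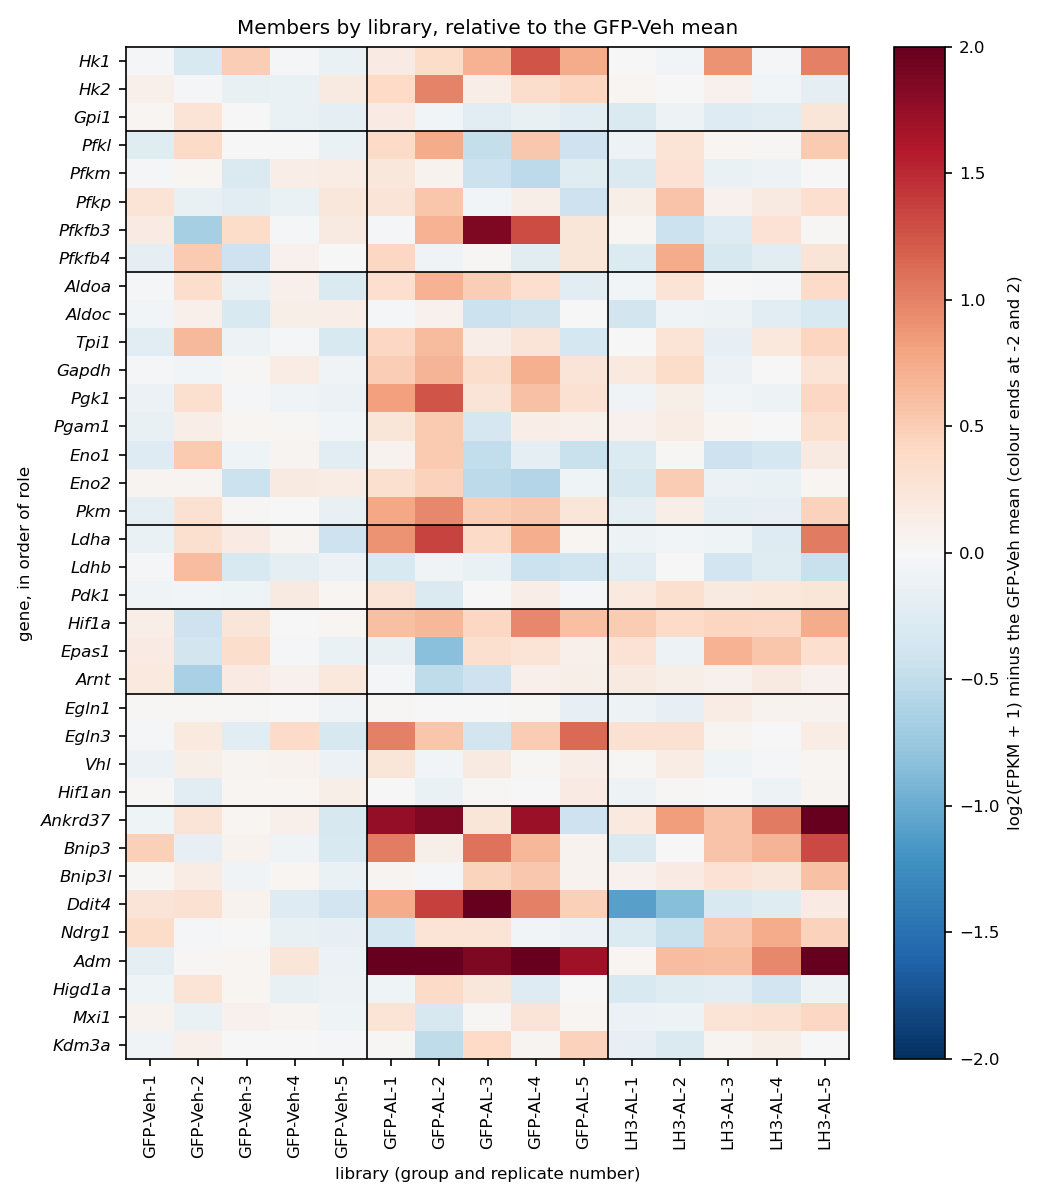
Each of the 36 tested members (rows, in order of role) in each of the 15 libraries (columns), as log2(FPKM + 1) minus the GFP-Veh mean, with the colour scale ending at -2 and 2. The red cells of GFP-AL are spread unevenly over its libraries, and LH3-AL replicate 5 is red for Hk1, Ldha, Hif1a, Ankrd37, Bnip3 and Adm.

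The libraries of a group did not carry these genes evenly. LH3-AL replicate 5 was the highest of its group for 20 of the 37 members, GFP-Veh replicate 2 for 17 and GFP-AL replicate 2 for 16, while LH3-AL replicate 1 was the lowest of its group for 15 and GFP-Veh replicate 5 for 14. LH3-AL replicate 5 also had the highest summed level of 8 red cell markers in LH3-AL, 10183.6 FPKM against 4799.3 to 8036.4 in the other 4 libraries. It was likewise highest of LH3-AL for the sums of endothelial markers, at 2710.5 FPKM against 1963.4 to 2336.7, and of microglia and macrophage markers, at 317.2 against 281.6 to 312.8. It was the lowest of LH3-AL for astrocyte markers (389.9 against 433.5 to 557.5) and perivascular fibroblast markers (234.3 against 274.6 to 335.7). For the remaining marker lists it was neither highest nor lowest. The part of these cells in its values was not tested. In GFP-AL, replicate 5 was the lowest of its group for 12 members.

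**Figure D4:**
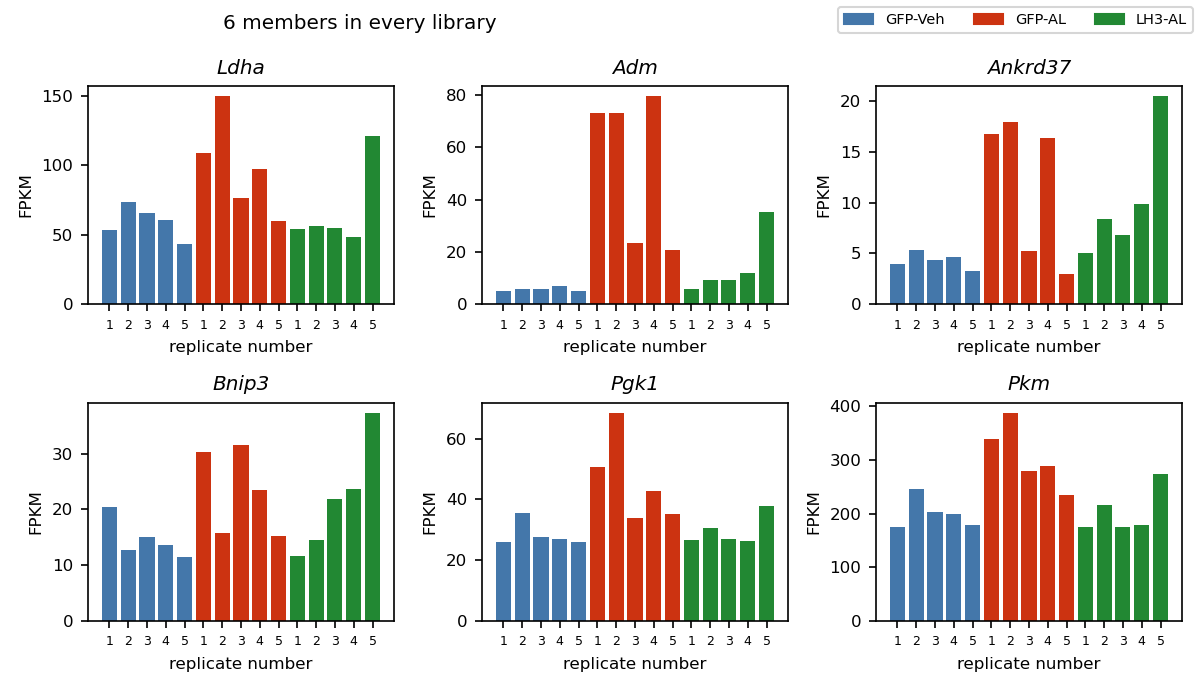
FPKM of 6 members in each library (bars; blue, GFP-Veh; red, GFP-AL; green, LH3-AL; replicates 1 to 5 within a group). LH3-AL replicate 5 is the highest LH3-AL bar in all 6 panels, and GFP-AL replicate 5 is among the 2 lowest GFP-AL bars in each. The 6 were picked by hand, so the panels do not stand for all members. Over the 37 members LH3-AL replicate 5 was the highest of its group for 20, and GFP-AL replicate 5 the lowest of its group for 12.

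Isozymes and other related genes were compared in pairs, as log2 ratios within a library. The test was an exact two-sided permutation of the 5 against 5 libraries, with adjustment over 7 pairs in 3 comparisons (21 tests). None passed after adjustment, and none could alone: the smallest p that 5 against 5 libraries allow is 0.00794, which for 1 ratio adjusts to 0.167. The ratio of Ldha to Ldhb averaged -0.04 ± 0.34 (GFP-Veh; SD, n = 5), 0.91 ± 0.44 (GFP-AL) and 0.33 ± 0.64 (LH3-AL). It was 0.94 higher in GFP-AL than in GFP-Veh (exact permutation p = 0.0159, adjusted p = 0.167). The ratio of Hif1a to Epas1 averaged -5.07 ± 0.11, -4.36 ± 0.51 and -4.93 ± 0.33 in the same groups, 0.71 higher in GFP-AL than in GFP-Veh (exact permutation p = 0.0159, adjusted p = 0.167). The ratio of Aldoa to Aldoc was 0.33 higher in LH3-AL than in GFP-Veh (exact permutation p = 0.0397, adjusted p = 0.278).

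Glucose and lactate transport was described with 7 tested genes outside the 37. In GFP-AL against GFP-Veh 2 rose (28.6%) and 1 fell (14.3%), where 10.8% of all tested genes rose and 17.7% fell. In LH3-AL against GFP-AL 1 was higher and 1 lower (14.3% each), where 17% of all tested genes were higher and 11.4% lower. Slc2a1, the glucose transporter of the blood-brain barrier, averaged 732 ± 159.9 FPKM (GFP-Veh), 1369 ± 348 (GFP-AL) and 842 ± 386 (LH3-AL), a difference of 0.90 ± 0.30 (SE; adjusted p = 0.0353) in GFP-AL and -0.82 ± 0.30 (SE; adjusted p = 0.0518) in LH3-AL against GFP-AL. Slc16a3, a lactate exporter, went from 0.943 to 9.58 FPKM in GFP-AL, with 2.22 ± 0.31 (SE; adjusted p = 1.53e-04), and was -2.11 ± 0.31 (SE; adjusted p = 3.51e-04) in LH3-AL against GFP-AL. Bsg, the chaperone that brings lactate transporters to the membrane, fell from 1106 to 503 FPKM in GFP-AL, a difference of -1.16 ± 0.21 (SE; adjusted p = 8.93e-04), and was higher in LH3-AL than in GFP-AL by 0.85 ± 0.21 (SE; adjusted p = 0.00794).

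Entry of pyruvate into mitochondria, with 13 tested genes, showed 0 calls in GFP-AL against GFP-Veh by limma and 1 gene, Mpc1, below an unadjusted p of 0.05. Over all tested genes 10.8% rose and 17.7% fell in that comparison, and 17% were higher and 11.4% lower in LH3-AL than in GFP-AL. Between LH3-AL and GFP-AL, Pdk2, a kinase of pyruvate dehydrogenase, was higher by 0.45 ± 0.10 (SE; adjusted p = 0.00397) and Pdp2, the opposing phosphatase, by 0.47 ± 0.16 (SE; adjusted p = 0.038). Of 8 pentose phosphate genes, 3 rose in GFP-AL (37.5%) and 1 fell (12.5%). G6pdx, the first enzyme of that pathway, differed by 0.32 ± 0.09 (SE; adjusted p = 0.014), Pgd by 0.48 ± 0.11 (SE; adjusted p = 0.00424) and H6pd by 0.56 ± 0.11 (SE; adjusted p = 0.00214), while Rpia differed by -0.45 ± 0.15 (SE; adjusted p = 0.0351). Between LH3-AL and GFP-AL, Pgd was lower, at -0.43 ± 0.11 (SE; adjusted p = 0.00964).

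Among 14 tested isozymes and bypass enzymes, 2 rose (14.3%) and 3 fell (21.4%) in GFP-AL, where 10.8% of all tested genes rose and 17.7% fell. In LH3-AL against GFP-AL 4 were higher (28.6%) and 1 lower (7.1%), where 17% of all tested genes were higher and 11.4% lower. Bpgm, which makes 2,3-bisphosphoglycerate in red cells, averaged 17 ± 4.35, 65.6 ± 30.8 and 51.6 ± 12.6 FPKM in the 3 groups. It was 1.79 ± 0.28 (SE; adjusted p = 3.57e-04) in GFP-AL against GFP-Veh and 1.55 ± 0.28 (SE; adjusted p = 0.0195) in LH3-AL against GFP-Veh, where it was the only gene of its list that was called. Pgm1, a phosphoglucomutase, averaged 8.96, 17.7 and 8.83 FPKM, with 0.88 ± 0.15 (SE; adjusted p = 6.55e-04) and -0.89 ± 0.15 (SE; adjusted p = 7.72e-04) in GFP-AL against GFP-Veh and LH3-AL against GFP-AL. Gpd1l, a glycerol-3-phosphate dehydrogenase, was -0.44 ± 0.09 (SE; adjusted p = 0.00222) in GFP-AL and 0.53 ± 0.09 (SE; adjusted p = 8.09e-04) in LH3-AL against GFP-AL. Pcx, the pyruvate carboxylase, fell in GFP-AL by a difference of -0.59 ± 0.12 (SE; adjusted p = 0.00302).

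Other components of the HIF pathway (16 tested) included 3 that rose (18.8%) and 1 that fell (6.2%) in GFP-AL. Over all tested genes 10.8% rose and 17.7% fell there, and 17% were higher and 11.4% lower in LH3-AL than in GFP-AL. Cited2, a competitor of HIF for its coactivators, differed by 0.45 ± 0.09 (SE; adjusted p = 0.00197), Hif3a by 1.53 ± 0.42 (SE; adjusted p = 0.013) and Egln2 by 0.39 ± 0.14 (SE; adjusted p = 0.0414), while Arnt2 differed by -0.45 ± 0.16 (SE; adjusted p = 0.0421). Between the drug-treated groups, Arnt2 was 0.52 ± 0.16 (SE; adjusted p = 0.0229) and Siah2, a ubiquitin ligase of the prolyl hydroxylases, -0.36 ± 0.13 (SE; adjusted p = 0.0434). Hif3a averaged 2.33, 8.70 and 7.66 FPKM, and its 1.24 in LH3-AL against GFP-Veh had adjusted p = 0.331. For LH3-AL against GFP-Veh limma called 0 genes in this list (3 below an unadjusted p of 0.05), 0 in transport (0), 0 in pyruvate entry (1) and 0 in the pentose phosphate pathway (2). Over all tested genes 0.52% were called there, and at an unadjusted p below 0.05 limma put 3.73% higher and 5.29% lower.

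A further 33 genes reported as HIF targets, Slc2a1 again among them, were tested, and they moved in both directions. In GFP-AL against GFP-Veh 12 rose (36.4%) and 8 fell (24.2%), where 10.8% of all tested genes rose and 17.7% fell. The median difference was 0.075 on the log2 scale, against -0.092 over all genes. In LH3-AL against GFP-AL 6 were higher (18.2%) and 12 lower (36.4%), where 17% of all tested genes were higher and 11.4% lower. Here the median was -0.2, against 0.079 over all genes. Apln, a vasodilator peptide, averaged 6.69, 55.4 and 9.82 FPKM, Pgf, a ligand of the VEGF receptor FLT1, 6.41, 50.6 and 8.64, and Stc1, a stanniocalcin, 3.82, 45.3 and 2.44. Their differences in GFP-AL against GFP-Veh were 2.78 ± 0.29 (SE; adjusted p = 2.02e-05), 2.67 ± 0.29 (SE; adjusted p = 2.13e-05) and 3.09 ± 0.33 (SE; adjusted p = 2.19e-05).

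In LH3-AL against GFP-AL these 3 genes were -2.42 ± 0.29 (SE; adjusted p = 8.65e-05), -2.29 ± 0.29 (SE; adjusted p = 9.61e-05) and -3.55 ± 0.33 (SE; adjusted p = 1.55e-05). Hmox1, a haem oxygenase that haem itself also induces, was 2.83 ± 0.34 (SE; adjusted p = 4.37e-05) in GFP-AL. The lowest of the 33, Cxcl12, named after its values were seen, averaged 121, 39.8 and 138 FPKM, with -1.67 ± 0.29 (SE; adjusted p = 6.86e-04) for GFP-AL against GFP-Veh. Between LH3-AL and GFP-Veh, Edn1, which encodes the vasoconstrictor endothelin, was higher by 0.62 ± 0.11 (SE; adjusted p = 0.0192), and Jmjd6 was lower at -0.57 ± 0.09 (SE; adjusted p = 0.00871). Vegfa, the best-known HIF target in endothelial biology, was not called in any comparison and was singled out after the values were seen. Its difference between GFP-AL and GFP-Veh was -0.39 (adjusted p = 0.269).

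**Figure D5:**
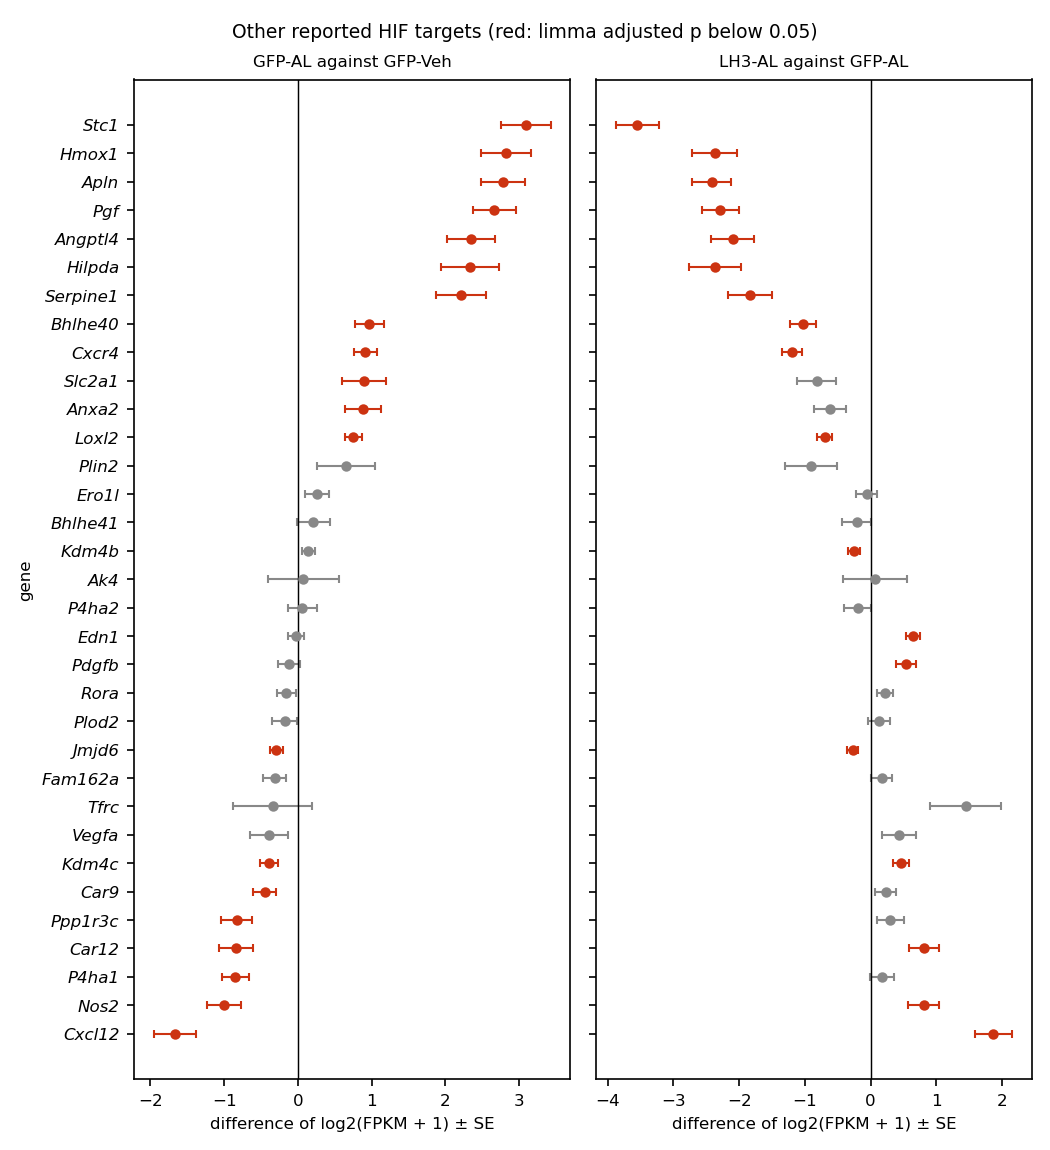
Difference of log2(FPKM + 1) for the 33 other genes reported as HIF targets (point, ± 1 SE from limma; 5 libraries a group), in red where the adjusted p is below 0.05. In GFP-AL against GFP-Veh 12 red points lie above 0 and 8 below, and in LH3-AL against GFP-AL 6 lie above and 12 below.

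Markers of several cell types also differed between the groups, some in other directions than the called members, and their part in the results was not tested. The summed level of 10 microglia and macrophage markers was 205.4 to 472.7 FPKM (GFP-Veh), 585.5 to 984.9 (GFP-AL) and 281.6 to 317.2 (LH3-AL), with 6 of 10 higher in GFP-AL and 7 of 10 lower in LH3-AL than in GFP-AL. Summed neutrophil markers (10 genes) were 106.4 to 344.5, 127.0 to 976.9 and 47.2 to 86.9 FPKM, with 6 higher in GFP-AL and 8 lower in LH3-AL than in GFP-AL. Summed red cell markers (8 genes) were 1479.1 to 3877.0, 3891.1 to 19408.7 and 4799.3 to 10183.6 FPKM. All 8 were higher in GFP-AL than in GFP-Veh. Between LH3-AL and GFP-Veh 4 were called higher and 0 lower, where 0.145% of all tested genes were higher and 0.375% lower. At an unadjusted limma p below 0.05 all 8 were higher there, where 3.73% of all tested genes were higher and 5.29% lower. For all 8, every LH3-AL library lay above every GFP-Veh library, where 2.06% of all tested genes did so and 2.61% lay wholly below.

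In GFP-AL 5 of 10 endothelial markers rose and 2 fell, and in LH3-AL 4 were lower (Pecam1, Cdh5, Ly6c1 and Esam) and 1 higher than in GFP-AL. Their summed levels were 2047.7 to 2932.7 FPKM (GFP-Veh), 2490.4 to 3779.6 (GFP-AL) and 1963.4 to 2710.5 (LH3-AL). Of 8 pericyte markers 2 fell in GFP-AL and 3 were higher in LH3-AL than in GFP-AL, and their summed levels were 1315.1 to 1662.2 FPKM (GFP-Veh), 776.5 to 1305.0 (GFP-AL) and 1240.2 to 1569.2 (LH3-AL). Choroid plexus markers were lower at 7 of 8 in GFP-AL and higher at 6 of 8 in LH3-AL than in GFP-AL. Of the remaining lists, 8 smooth muscle markers held 0 that rose and 1 that fell in GFP-AL, 8 astrocyte markers 1 and 3, 8 oligodendrocyte markers 1 and 4, 10 neuronal markers 0 and 0 (0 and 2 at an unadjusted p below 0.05), and 8 perivascular fibroblast markers 0 and 1. Over all tested genes 10.8% rose and 17.7% fell in GFP-AL (14.8% and 25.8% at an unadjusted limma p below 0.05). In LH3-AL against GFP-AL 17% of them were higher and 11.4% lower. None of the genes of these 11 lists averaged below 1 FPKM. Which cells of the preparation carried the members' transcripts was not measured.

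The authors' deposited table for GFP-AL against GFP-Veh, which lists only genes with an absolute log2 fold change above 1, holds 4 of the 37 members. In the authors' deposited table Adm has 3.244 (q = 8.02e-19), Pfkfb3 1.458 (q = 0.00682), Ankrd37 1.455 (q = 0.00109) and Ddit4 1.328 (q = 9.1e-05). Pfkfb3 and Ankrd37 are thus called in the authors' deposited table and missed the threshold on log2(FPKM + 1) here. A second authors' deposited table lists Adm at -1.916, Ddit4 at -1.758 and Pfkfb3 at -1.615. The name of that second authors' deposited table gives LH3-AL against GFP-Veh, yet its signs match those of LH3-AL against GFP-AL for 995 of 995 genes compared and those of LH3-AL against GFP-Veh for 56.2%.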

How the data were processed

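The members, the lists of related genes and markers, and the tests were chosen with earlier results of these data known. The deposited table gives FPKM for 22557 genes, with alignment by STAR 2.5.1b and the build mm8 per the submitters' processing notes; how reads were counted and how the authors transformed the values is not stated in those notes, the labels or the files. Of its values 5.99% lie below 0 (lowest -0.465) and were set to 0, and 31 repeated symbols were summed. The deposited tables of the authors' own comparisons give log2 fold changes with p-values and q-values.

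Here limma 3.58.1 (R 4.3.3) was fitted on log2(FPKM + 1) with an intensity trend and 3 group means over all 15 libraries, for the 13082 genes whose mean reached 1 FPKM. Benjamini-Hochberg adjustment ran over all of these genes, with a threshold of 0.05. Depth was estimated from the smallest steps of low values, and only 42.8% to 65.0% of low values came out within 0.1 of a whole read, so no count test was run. FPKM moves with the total of each library. Values per library are given for the called members and for Hif1a, Epas1, Gapdh, Ldha and Ldhb, and at most 4 called genes, those of smallest p, for each related list and comparison. Near copies were counted with BLAST 2.17.0. Alternatives changed the pseudocount, the filter, the scaling, the groups fitted, the trend, a depth term, a replicate block and the libraries included. Replicate numbers were not used to pair libraries, since same-numbered libraries did not deviate together in every pair.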

Additional observations from a re-analysis of the deposited data

Results flagged for a closer look

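In 11 of the 111 sets formed by a member and a group, 1 library lay apart from the other 4 (its gap to the nearest, over the range of the group, was above Dixon's 95% critical value), where chance gives about 1 in 20. GFP-Veh replicate 2 accounted for 4: Tpi1 at 44.5 FPKM (others 22.4 to 27.4), Pgk1 at 35.4 (others 25.9 to 27.7), Ldhb at 92.3 (others 48.0 to 58.7) and Arnt at 2.04 (others 4.09 to 4.55). LH3-AL replicate 5 held 2, Ldha at 121.0 FPKM (others 48.5 to 55.9) and Adm at 35.2 (others 5.83 to 12). The rest were Hk2 in GFP-AL replicate 2 at 2.92 FPKM (others 1.17 to 1.66), Eno2 in GFP-Veh replicate 3 at 5.42 (others 7.91 to 8.79) and Ndrg1 in GFP-Veh replicate 1 at 143.0 (others 98.9 to 111.0). Egln1 was low in replicate 5 of both GFP-Veh, at 29.5 FPKM (others 31.1 to 31.7), and GFP-AL, at 27.7 (others 31.2 to 31.6).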

How the results depend on the processing

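Over 2142 alternative values of member differences, 2090 kept their side of the threshold, 24 lost a call and 28 gained one. Direction was compared only where the main or the alternative fit made a call, and 0 of these reversed. Differences that neither fit called were not checked for a change of sign. In GFP-AL against GFP-Veh, 7 members rose, 7 to 11 when 1 library was left out, 4 with depth as a covariate, and 9 with the replicate block; 0 fell, and 1 (Ldhb) with quantile normalization. In LH3-AL against GFP-AL, 0 members were higher, 1 with the replicate block (Epas1, 0.41, adjusted p = 0.0304), and 0 to 1 when 1 library was left out; 7 were lower, 8 with the block, 5 with only the 2 groups compared or a mean of at least 5 FPKM, and 5 to 8 when 1 library was left out (5 without GFP-AL replicate 2 or LH3-AL replicate 3). Over all genes, those lower in GFP-AL than in GFP-Veh numbered 2321, but 1212 with a mean of at least 5 FPKM and 1344 with depth as a covariate; those higher in LH3-AL than in GFP-AL numbered 2227, but 1051 with a mean of at least 5 FPKM, where fewer genes are tested. In LH3-AL against GFP-Veh, 19 genes were higher: 12 with no filter on low values, 63 with only these 2 groups fitted, 0 with depth as a covariate, 6 with the replicate block, 69 without the 3 libraries that stood apart, and 2 to 16 when 1 library was left out. In the same comparison 49 were lower: 113 with only these groups, 4 with depth as a covariate, 25 with the block, 89 without the 3 libraries, and 23 to 44 when 1 was left out. The cause was not tested. Same-numbered libraries correlated at -0.261 to 0.286 in their deviations, not every library with its own number best, so the numbers are not known to pair them. The estimated depth limits what can be said of genes near 1 FPKM, such as Hk2 and Stc2.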
